A study of Canis lupus familiaris with 18 samples.

Results

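Canine primary endothelial cells (CaPECs) from the abdominal aorta were compared with CaPECs from the abdominal vena cava, 3 samples against 3, which are 6 of the 18 samples of the series. The samples were chosen by their labels and table columns, whose numbers recur in both vessels and are called samples 1, 2 and 3 here. The vessels came from 3 healthy adult male dogs that had served in unrelated pacemaker research. The cells were taken from the inverted vessel with collagenase and dispase, grown on gelatin in canine endothelial growth medium, and received no treatment. All 6 cultures therefore shared one medium and had been passaged before polyadenylated RNA was sequenced, so the data describe cultured cells without blood flow. The other 12 samples were CaPECs from the vena porta and vascular smooth muscle cells (VSMCs) from all 3 vessels. They are used here to place the aorta and vena cava values and in further tests set beside that comparison. The VSMCs were grown in DMEM with fetal calf serum, so cell type and medium cannot be told apart in any comparison of CaPECs with VSMCs.

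Endothelium forms the barrier between blood and the vessel wall. Arterial and venous endothelium differ in the embryo before blood flow begins. Notch signaling and the ligand ephrin-B2 are known marks of the arterial side, and the receptor EphB4 and the nuclear receptor COUP-TFII of the venous side. Both vessels are large and lie side by side in the abdomen, so the comparison asks how far cultured endothelial cells from a large artery and a large vein differ in transcription.

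Canine Ensembl identifiers name the 24580 genes of the count table, and 9190 of them had no count in the 6 samples. Of these identifiers, 0 could be matched to a gene symbol in the table used here, so the genes are given by identifier, their functions are not stated, and known arterial or venous markers were not analysed here. The total count ranged from 6020932 to 10090704 in the aorta samples and from 7602808 to 9858752 in the vena cava samples. At 10 counts or more, a sample held 10868 to 11627 genes. Levels are given as CPM, read counts scaled to the size of the library with edgeR's TMM factors over all 18 samples. CPM does not account for gene length, so a range of levels over several genes is no ranking of the genes by abundance.

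The label was checked with gene sets made from the vena porta samples alone, because named cell type markers could not be used. In the vena porta, 7 genes were above 20 CPM in every VSMC sample and below 1 CPM in every CaPEC sample. Summed over these 7 genes, the 6 aorta and vena cava CaPEC samples had 10.9 to 40.6 CPM, against 842 to 2500 CPM in the VSMCs of the same vessels. Of the 7 genes, between 0 and 3 were at 0 counts in each of the 6 CaPEC samples. Another 10 genes met the reverse condition and mark the CaPECs. They summed to 318, 581 and 402 CPM in aorta samples 1, 2 and 3 and to 172, 855 and 139 CPM in vena cava samples 1, 2 and 3, against 3.61 to 11.2 CPM in VSMCs of these vessels. Every one of the 6 samples was thus on the CaPEC side of both sets. Vena cava samples 1 and 3 were lowest for the CaPEC set, and vena cava sample 2 was highest. Between aorta and vena cava CaPECs, 0 of the 10 genes in the CaPEC set were called by edgeR or DESeq2 and 1 had an unadjusted p-value below 0.05 in edgeR's test, while of the 4 genes in the VSMC set that passed the filter edgeR called 0, 3 had such a p-value and DESeq2 called 3. Over all genes, edgeR called 0.5% and DESeq2 called 803 of 12966. Without vena cava sample 2, edgeR called 3 genes of the CaPEC set and 2 of the VSMC set, beside 11.6% of all genes.

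One library stood apart from its group. Over the 11408 genes tested, the root mean square difference in log2 CPM was 0.729 between vena cava samples 1 and 3, but 1.30 and 1.24 between vena cava sample 2 and these. Within the aorta, the same difference was 0.994 between samples 1 and 2, 0.94 between samples 1 and 3, and 0.667 between samples 2 and 3. Over the genes tested in all 9 CaPEC samples, the sample labelled vena cava 2 differed from vena porta samples 1, 2 and 3 by 0.791, 0.915 and 0.847, from aorta samples 1, 2 and 3 by 1.30, 1.01 and 1.07, and from its own group by 1.32 and 1.27. It was therefore nearer to all vena porta samples than to the other vena cava samples. The vena porta samples themselves differed from vena cava samples 1 and 3 by 1.14 to 1.44, against 0.76 between those samples over the same genes, so no vena porta sample lay near them. Whether its vena cava label is right could not be decided from these data, and every comparison with the 3 vena cava samples takes the label as given. With 9535317 counts and 11225 genes at 10 or more counts, its depth was within the range of the other samples. The calls, the share of variance and the calls in the cell type sets are given with and without it, and single genes with its own value.

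In a principal component analysis of the 500 most variable genes, 60.7% of the variance fell on the first component and 20.4% on the next. Along the first, aorta samples 1, 2 and 3 lay at -58.3, -16.5 and -19.4, and vena cava samples 1, 2 and 3 at 57.2, -8.43 and 45.5. All aorta samples were below all vena cava samples, but vena cava sample 2 lay beside the aorta. On the second component, vena cava sample 2 lay at 50.7 and the other 5 samples between -15.8 and -4.36.

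**Figure D1:**
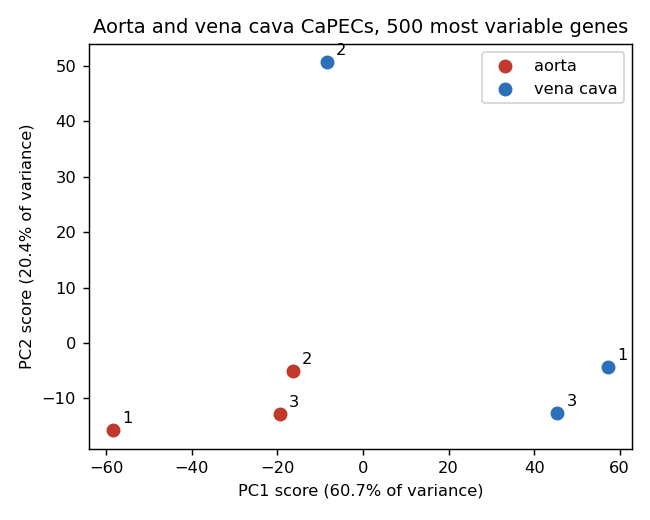
Scores of the 3 aorta and 3 vena cava CaPEC samples on the first (horizontal, 60.7% of variance) and second (vertical, 20.4%) principal components of the 500 most variable genes; each point is a sample with its number. The aorta samples lie from -58.3 to -16.5 horizontally, vena cava samples 1 and 3 at 57.2 and 45.5, and vena cava sample 2 apart at 50.7 on the vertical axis.

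Of the variance in these 500 genes, 44.2% lay between the vessels. Among the 10 ways to part the 6 samples into 3 and 3, the share was largest for the real one (one-sided exact permutation test, p = 0.1, and no smaller value is possible with 3 against 3). The next largest share, 35.6%, came from exchanging aorta sample 2 with vena cava sample 2. With vena cava sample 2 left out, the share of the vessel was 69.6%, and with any other sample left out it was at least 37.8%.

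Between aorta and vena cava CaPECs, 57 of 11408 genes (0.5%) were called, 44 higher in the aorta (0.386%) and 13 lower (0.114%). A call required an adjusted p-value below 0.05 in edgeR's quasi-likelihood test and an absolute log2 fold change above 0.4. The adjusted p-values of the called genes ranged from 0.0291 to 0.0483, so all of them lay near the threshold, and the next genes in the order had 0.0506. Before adjustment, 1958 genes had a p-value below 0.05. The aorta and vena cava samples did not overlap in any of the 57 called genes, a condition that 24.5% of all genes tested met, 13.7% higher and 10.8% lower in the aorta. With the sample number as a block, edgeR called 1 gene (0.00877%), and before adjustment 1649 p-values were below 0.05. The adjusted p-values with the block were 0.0124 for this gene and at most 0.194 for the others. The gene called with the block had 99.7, 384 and 26.5 CPM in aorta samples 1, 2 and 3, and only 1 count over the 3 vena cava samples.

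The 44 genes higher in the aorta had a median log2 fold change of 3.11. In 5 of them, with at most 3 counts over the vena cava samples, 3 counts would give a change of at least 5.44. This is above the median, so the fitted values of these 5 genes do not affect it. The smallest change among the 44 genes was 1.18, and the change exceeded 2 in 32 genes and 4 in 16. Excluding those 5 genes, the largest was 8.24 (SE 0.71). The 13 genes lower in the aorta had a median log2 fold change of -1.71 and ranged from -0.997 to -5.28 (SE 0.62). Over all genes tested, the median log2 fold change was -0.03 and the median absolute value 0.35.

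**Figure D2:**
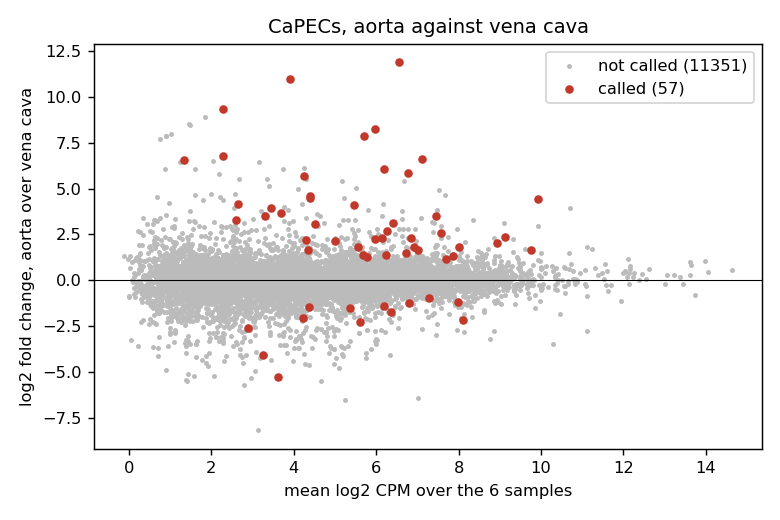
Log2 fold change of aorta over vena cava CaPECs (vertical) against the mean log2 CPM over the 6 samples (horizontal), with 1 point for each of the 11408 genes tested and the 57 called genes in red. The called genes span low and high levels, 44 above 0 and 13 below; the fitted values of the 5 genes with at most 3 vena cava counts depend on edgeR's prior count and are not bounds.

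Among the genes higher in the aorta, the mean level ranged from 4.26 to 1675 CPM in the aorta (median 96.1) and from 0 to 369.9 CPM in the vena cava (median 9.78). In 8 of the 44 genes, no vena cava sample exceeded 1 CPM. In 2 of these 8, no read was counted in any vena cava sample. If 3 counts over the group are taken as the limit that a count of 0 allows, these genes were at least 95.3-fold and at least 285-fold higher in the aorta. These limits are for counts pooled over the samples of each vessel, not for the mean CPM. For the genes lower in the aorta, the mean level ranged from 0.497 to 142 CPM in the aorta (median 19) and from 11 to 402.6 CPM in the vena cava (median 72.1), and in 0 of the 13 were all aorta samples at or below 1 CPM.

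Of the genes higher in the aorta, the 2 with the smallest p-values are given by identifier. ENSCAFG00000015410 had 30.5, 36.2 and 44.2 CPM in aorta samples 1, 2 and 3, and 3.89, 4.78 and 4.25 CPM in the vena cava samples. The aorta samples were all far above the vena cava samples, and vena cava sample 2 did not differ from its group here. Its log2 fold change was 3.08 (SE 0.23, adjusted p = 0.0291 from edgeR), and 3.07 (SE 0.24, adjusted p = 0.12 from edgeR) with the block. The vena porta CaPECs had 1.75 ± 0.266 CPM (SD, n = 3), below both other vessels. No VSMC sample exceeded 0.633 CPM, so this gene was measured almost only in CaPECs and did not pass the filter in VSMCs of the aorta and vena cava.

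ENSCAFG00000019473 had 38.0, 31.2 and 30.6 CPM in the aorta samples and 0.572, 0.276 and 1.02 CPM in the vena cava samples. The vena cava values correspond to 20 counts over the 3 samples, and the aorta values to 871. The log2 fold change was 5.68 (SE 0.45, adjusted p = 0.0291 from edgeR), and 5.76 (SE 0.48, adjusted p = 0.12 from edgeR) with the block. In contrast to the first gene, it was also counted in VSMCs, at 8.31 ± 2.23 CPM in the aorta (SD, n = 3) and 5.55 ± 2.71 CPM in the vena cava (SD, n = 3). Its level in vena cava CaPECs was thus below that of the VSMCs, while in aorta CaPECs it was above.

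Of the genes lower in the aorta, ENSCAFG00000002222 had 75.9, 103.4 and 96.7 CPM in aorta samples 1, 2 and 3, and 402.5, 364.8 and 440.5 CPM in the vena cava samples. The log2 fold change was -2.15 (SE 0.19, adjusted p = 0.0291 from edgeR), and -2.16 (SE 0.20, adjusted p = 0.12 from edgeR) with the block. In VSMCs, the level was 434.8 ± 41.7 CPM in the aorta and 443.4 ± 18 CPM in the vena cava (SD, n = 3 each), close to the vena cava CaPECs. Vena porta CaPECs lay between the other vessels, at 139.9, 111.9 and 270.3 CPM.

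ENSCAFG00000006965 followed the same order. It had 13.3, 16.6 and 14.8 CPM in the aorta samples, 58.5, 69.5 and 88.3 CPM in the vena cava samples, and 28.3 ± 9.37 CPM in the vena porta (SD, n = 3). The log2 fold change of aorta over vena cava was -2.30 (SE 0.21, adjusted p = 0.0291 from edgeR), and -2.28 (SE 0.20, adjusted p = 0.12 from edgeR) with the block. In VSMCs the levels were 71.0 ± 13.8 CPM in the aorta and 90.5 ± 13.4 CPM in the vena cava (SD, n = 3 each).

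**Figure D3:**
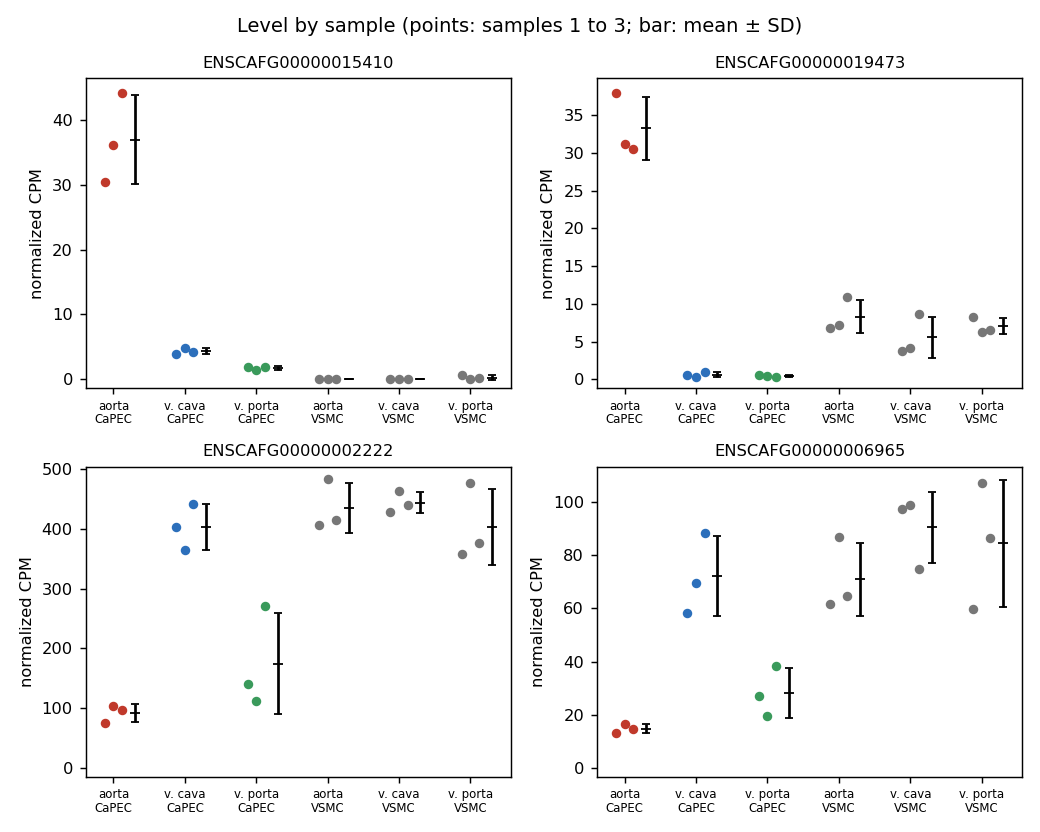
Normalized CPM (vertical, linear scale) of 4 genes in all 18 samples, by vessel and cell type (horizontal); points are samples 1 to 3 in order and bars are mean ± SD (n = 3). In the upper genes the aorta CaPECs, at 30.5 to 44.2 CPM and 30.6 to 38.0 CPM, are above every other sample, and in the lower genes, at 75.9 to 103.4 CPM and 13.3 to 16.6 CPM, they are below every other sample.

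The vena porta CaPECs, which did not enter the test, were placed beside the 57 genes. Of the 44 genes higher in the aorta, all 3 vena porta samples lay below all aorta samples in 38. In 29 of these 38 they did not all lie above the vena cava samples, and in 9 they lay between both vessels without overlap. The mean of the aorta was the highest of the 3 CaPEC groups in all 44 genes, and that of the vena cava was the lowest in 37. Of the 13 genes lower in the aorta, the vena porta samples lay above all aorta samples in 7 and below all vena cava samples in 11. On a log2 scale, the vena porta mean was nearer to the vena cava mean in 33 of the 44 genes higher in the aorta and in 3 of the 13 genes lower in it. Because these genes were chosen for the difference between the other vessels, the positions are a description and were not tested. No share of all genes tested is given beside these counts, so they cannot be read as particular to the 57 genes.

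**Figure D4:**
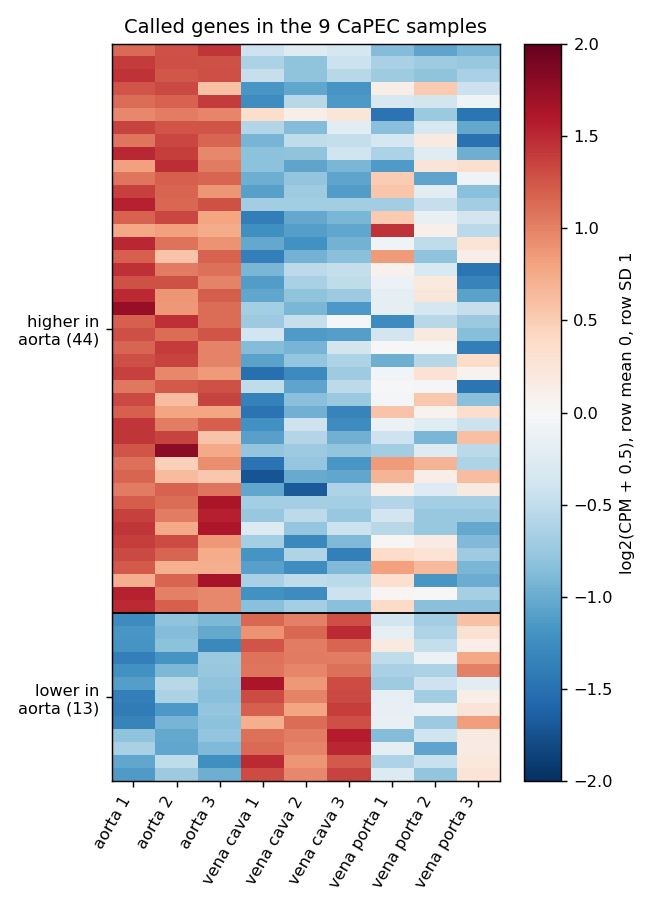
Levels of the 57 called genes (rows, 44 higher and 13 lower in the aorta, each ordered by p-value) in the 9 CaPEC samples (columns), as log2(CPM + 0.5) scaled to mean 0 and SD 1 in each row. The vena porta samples resemble the vena cava in most rows of the upper part (mean nearer to the vena cava in 33 of 44) and the aorta in most rows of the lower part (mean nearer to the vena cava in 3 of 13).

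The called genes were next set beside the difference between the cell types, taken from the vena porta samples alone. There, 10.5% of the genes tested were higher in CaPECs and 11.3% were higher in VSMCs by the same call. Of the 13 genes lower in the aorta, the VSMC level was the higher one in 10 (76.9%) and the CaPEC level in 0. Among the 44 genes higher in the aorta, 8 (18.2%) had the higher level in VSMCs, 7 (15.9%) in CaPECs, 24 were neither, and 5 did not pass the filter. Over the 11408 genes tested between aorta and vena cava, 10.2% had the higher level in VSMCs and 10.4% in CaPECs. Thus, the genes lower in aorta CaPECs were mostly ones with a higher level in vena porta VSMCs. The aorta CaPECs had the lowest mean of all 6 groups in 12 of these 13 genes and the highest in 40 of the 44 genes higher in the aorta, which is a description only, because the genes were chosen for low or high levels in aorta CaPECs. The summed level of the VSMC set in CaPECs was 10.9, 34.4 and 11 CPM in aorta samples 1, 2 and 3 and 40.6, 11.7 and 32.9 CPM in the vena cava samples, and its part in these differences was not tested.

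In VSMCs, the same vessels were compared with samples that the CaPEC test did not use. There, edgeR called 73 of 11254 genes (0.649%), 44 with the higher level in the aorta (0.391%) and 29 with the higher level in the vena cava (0.258%). With the block, it called 682 (6.06%), of which 413 were higher (3.67%) and 269 lower (2.39%). Of the 57 CaPEC genes, 50 were tested in VSMCs and 0 were called by edgeR's quasi-likelihood test, while 9 had an unadjusted p-value below 0.05 and DESeq2 called 1. With the block, 5 of the 37 tested genes that were higher in aorta CaPECs were called in VSMCs, 4 of them in the same direction, and 3 of the 13 genes lower in it, 2 in the same direction. The median log2 fold change in VSMCs was 0.18 for the 37 genes (range -1.56 to 2.11) and -0.15 for the 13 genes (range -2.20 to 1.13), against -0.02 over all genes. The sign was the same in 23 of 37 and in 10 of 13, and 47.8% of all genes were higher in the VSMCs of the aorta.

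Whether the difference between aorta and vena cava was itself different in the cell types was tested as an interaction over 12 samples and 12035 genes, with cell type and culture medium changing together. The adjusted p-value from edgeR was below 0.05 in 63 genes (0.523%), where the log2 fold change of aorta over vena cava was greater in CaPECs in 39 (0.324%) and greater in VSMCs in 24 (0.199%). With the block, fitted separately within each cell type, the number was 44 (0.366%), 28 (0.233%) and 16 (0.133%) by direction. The 63 genes included 21 of the 44 genes higher and 7 of the 13 genes lower in aorta CaPECs, which is no independent support because these were chosen on the same samples. The difference in log2 fold change, CaPECs minus VSMCs, was 5.10 (SE 0.61, adjusted p = 0.00736 from edgeR) for ENSCAFG00000019473, -2.10 (SE 0.22, adjusted p = 0.00624) for ENSCAFG00000002222, and -1.93 (SE 0.28, adjusted p = 0.0177) for ENSCAFG00000006965. With the block, these 3 genes had adjusted p-values of 0.0242, 0.027 and 0.0337 from edgeR. For ENSCAFG00000015410, which is nearly absent from VSMCs, it was 2.89 (SE 1.62, adjusted p = 0.56 from edgeR).

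The number of called genes depended on single samples. Without vena cava sample 2, edgeR called 1353 of 11704 genes (11.6%), with 724 up (6.19%) and 629 down (5.37%) in the aorta, and these included all 57 genes. Without aorta sample 1 or aorta sample 2, 0 genes were called, where 1273 and 1497 had an unadjusted p-value below 0.05 in edgeR's test and DESeq2's Wald test on all 6 samples called 803. Without aorta sample 3 or vena cava sample 1, 1 gene was called, and without vena cava sample 3, 5 genes, all higher in the aorta. The median SD of log2 CPM within a group was 0.278 in the aorta and 0.36 in the vena cava, each over 3 samples. Over pairs of samples, it was 0.218 between vena cava samples 1 and 3, 0.348 and 0.317 between vena cava sample 2 and these, and 0.194 to 0.247 within the aorta. The biological coefficient of variation fell from 0.408 to 0.315 without vena cava sample 2.

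**Figure D5:**
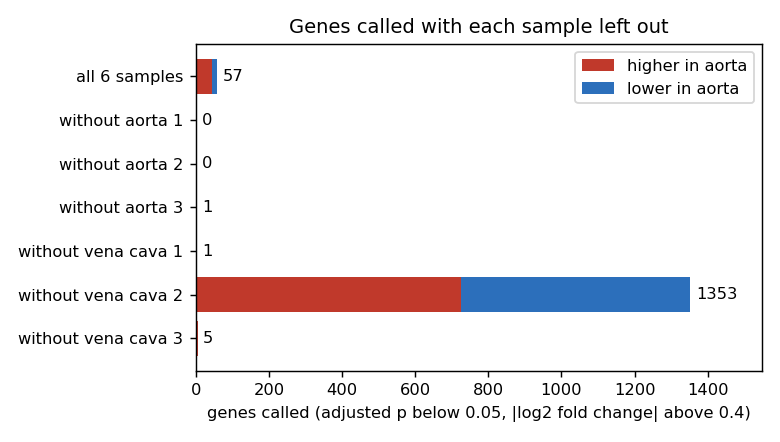
Number of genes called between aorta and vena cava CaPECs (horizontal, linear from 0) with all 6 samples and with each sample left out (vertical), split into genes higher and lower in the aorta. The number is 57 with all samples, 0 to 5 without any sample but vena cava 2, and 1353 without vena cava sample 2.

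The 1353 genes were chosen for a distance between the aorta and vena cava samples 1 and 3, so the position of vena cava sample 2 in them is not given. By the cell type difference in the vena porta, 37.6% of the 724 genes were higher in CaPECs and 4.28% in VSMCs, whereas 1.43% of the 629 genes were higher in CaPECs and 32.1% in VSMCs. Over the 11704 genes tested without vena cava sample 2, these shares were 10.1% and 10.2%. Vena cava samples 1 and 3 were also the samples with the lowest sum of the CaPEC set, 172 and 139 CPM, and the part of cell type in the 1353 calls was not tested.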

How the data were processed

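RNA from 18 cultures was sequenced as single-end reads of 75 bases. Libraries were made with a directional kit. Alignment to canFam3 was done by the authors with STAR 2.4.2a, and reads were assigned to genes by HTSeq-count 0.6.1p1 in union mode. The annotation release and strand setting are not given in the sources used here, so overlapping and antisense genes cannot be told apart. They deposited raw read counts per gene, without normalization. A table of RefSeq genes (assembly UU_Cfam_GSD_1.0) held 0 of the 24580 identifiers, and no symbols, lengths, sequences or marker lists were used.

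From these counts, the 3 aorta and 3 vena cava CaPEC samples were compared with edgeR 4.0.16 in R 4.3.3 (TMM, filterByExpr with minimum count 10, glmQLFit and glmQLFTest), without and with the sample number as a replicate block, with Benjamini-Hochberg adjustment over all genes tested. The fold limit, an absolute log2 fold change above 0.4, is that of the study, which used DESeq2 and names a p-value limit of 0.05 without saying that it was adjusted; here 0.05 was applied to the adjusted p-value, and the interaction had no fold limit. VSMCs were tested in the same way. Standard errors were derived from edgeR's F statistic. Principal components and shares of variance used log2 CPM with a prior count of 2.

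The numbers in the column names recur in every vessel within a cell type and the vessels came from the same dogs, but the sources do not say that a number marks a dog. CaPEC and VSMC columns carry different numbers, so no column number links the cell types. Deviations of same-numbered aorta and vena cava samples from their group means correlated at -0.15, -0.016 and 0.23 across genes, which are not independent. For differently numbered samples the correlations ranged from -0.26 to 0.2. Replicates differed by 8.41 to 25.7 times the counting noise, so no library was counted as a second deposit of another; this check does not bear on whether they came from separate animals. Where a number marks no separate animal, the p-values measure only the spread between these cultures.

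DESeq2 1.42.0, its size factors in edgeR, limma 3.58.1 (voomWithQualityWeights), other filters and thresholds, all 9 CaPEC samples in one model, and leaving out samples were alternatives. Only edgeR and DESeq2 without the block, and limma between aorta and vena cava CaPECs, were run on simulated counts, and the outcome is not given here. The fits with the block, the model of all 9 CaPEC samples and the permutation test were not. The comparison and the gene sets were chosen with earlier results of these data known. The genes given by identifier are, for each direction, the 2 of lowest p-value among the called genes whose groups do not overlap, the rule for tables without symbols. Other genes were left unnamed for the same reason. At these depths a gene at 1 CPM has few reads in a sample, and limits for a count of 0 cover counting error only.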

Additional observations from a re-analysis of the deposited data

Results flagged for a closer look

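The difference between aorta and vena cava was different in CaPECs and VSMCs in 63 of 12035 genes, by the interaction in edgeR's quasi-likelihood model. Of the 61 of these genes that were tested within both cell types, 56 changed more in CaPECs by absolute log2 fold change. The share of all 10827 genes tested in both cell types that did so is not given here. The fit has one dispersion per gene, while the biological coefficient of variation was 0.408 in CaPECs and 0.264 in VSMCs, so this direction is not independent evidence. Among the genes given by identifier, the difference was 5.10 for ENSCAFG00000019473, -2.10 for ENSCAFG00000002222 and -1.93 for ENSCAFG00000006965, each on the log2 scale and past the threshold without and with the block. For ENSCAFG00000015410 it was 2.89, with adjusted p-values from edgeR of 0.56 and, with the block, 0.591. All of them were chosen for their difference in CaPEC samples that the interaction also uses, so their values here are no independent support. Without vena cava CaPEC sample 2, 906 genes were called in this test, and without any other sample 15 to 54.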

How the results depend on the processing

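Between aorta and vena cava CaPECs, 57 genes were called. DESeq2's Wald test called 803, with the replicate block 711, and without vena cava sample 2, which was added once the data had been seen, 2382; each of these included the 57. With limma and sample weights, which were lowest for vena cava sample 2 (0.288), the number was 762, of which 52 were among the 57. In edgeR it was 1 with the replicate block, 143 with all 9 CaPEC samples in the model (48 among the 57) and 12 with the replicate block in that model (11 among the 57), 92 without a filter, and 224 at an adjusted p-value below 0.1. The numbers were 57 with DESeq2's size factors, 75 at a minimum count of 50 (54 among the 57), 57 without a fold limit, and 56 with robust estimation (52 among the 57), likewise added. With a sample left out it ranged from 0 to 1353, and with both samples of a number left out from 0 to 591, the highest value without number 2. In VSMCs, 73 genes became 385 with DESeq2, 163 without a filter, 682 with the replicate block, and 0 to 52 with a sample left out (0 without VSMC vena cava sample 2), where 981 to 1640 genes had an unadjusted p-value below 0.05. The 63 genes of the interaction became 462 with DESeq2 and 15 to 906 with a sample left out, and numbered 44 with the replicate block, of which only 26 were among the 63, 84 without a filter (59 shared) and 63 with DESeq2's size factors (62 shared). The cause of these changes was not tested. The share of variance of the vessel ranged from 37.8% to 69.6% with a sample left out. Another split had a share at least as large whenever an aorta sample was left out. The 4 genes given by identifier, whose direction is fixed by the choice of genes without overlap, stayed past the threshold in 11 to 13 of the 20 alternatives run for each, with adjusted p-values of at most 0.342.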
